A study of Ovis aries with 6 samples.

Results

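BMPR1B and the genes of the bone morphogenetic protein (BMP) pathway around it were examined in sheep (Ovis aries) ovaries. The members were chosen by gene symbol: GDF9, BMPR1B, BMPR1A, BMPR2, ACVR2B, SMAD1, SMAD5, SMAD4, NOG and ID1, each found once, which makes 10 genes of the 14480 in the gene table. The study profiled polyadenylated RNA of ovary during estrus in 3 libraries from Hu sheep, which commonly bear several lambs, and 3 libraries from Mongolian sheep, which usually bear a single lamb. The series title speaks of exosomes, whereas every sample is labelled as ovary. The age of the ewes, their genotype at BMPR1B, and whether the libraries of a breed came from separate animals are not known here, so p-values measure only the spread between these libraries. Values are FPKM (fragments scaled to transcript length and to the library total), whose sequencing depth is unknown, and 3 values of a breed belong to replicates 1, 2 and 3 in that order.

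BMP ligands bind a complex of type I and type II receptor kinases on the cell surface. The type I receptor phosphorylates the receptor SMADs, which join the common SMAD, SMAD4, enter the nucleus and switch on targets such as the ID genes, while secreted antagonists such as noggin trap the ligands. In the sheep ovary the oocyte factors GDF9 and BMP15 act on granulosa cells, and BMPR1B, also called ALK6 or FecB, carries the Booroola mutation, which raises ovulation rate and litter size and is common in Hu sheep. These are messenger RNA levels, and they give no information on that mutation or on phosphorylation of SMADs.

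The Hu libraries differed from each other in how many genes they listed, which touches every result below. The share of the 14480 genes listed at 0 FPKM was 55.1%, 45.0% and 7.86% in the Hu libraries and between 20.8% and 27.2% in the Mongolian libraries. Of the 10 members, 5, 4 and 2 were listed at 0 in Hu ovaries, against 1, 1 and 0 in Mongolian ovaries. A value of 0 can be a failed estimate and is described only as listed at 0. Stromal genes marked the tissue in every library: the 7 of 8 stroma markers listed by symbol were all above 0 in all 6 libraries, and their summed level ranged from 952 to 1143 FPKM in Hu ovaries and from 878 to 979.6 in Mongolian ovaries.

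SMAD4 was the most abundant member in all 6 libraries, SMAD5 stood next in all but Mongolian 3, and GDF9, NOG and ACVR2B were scarce. SMAD1 stood below BMPR1A in every Mongolian library. Of the 10 members, 7 reached 0.5 FPKM in 3 or more of the 6 libraries, the minimum for testing, and GDF9, NOG and ACVR2B did not. None of the 7 was called by limma at a Benjamini-Hochberg adjusted p under 0.05, where 0% of the 9971 genes tested were called, and 0.998 was the adjusted p of each. At an unadjusted p under 0.05 stood 1 of the 7, BMPR1A, against 3.73% of all genes tested. The smallest p that an exact permutation test of 3 against 3 libraries allows is 0.1.

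**Figure D1:**
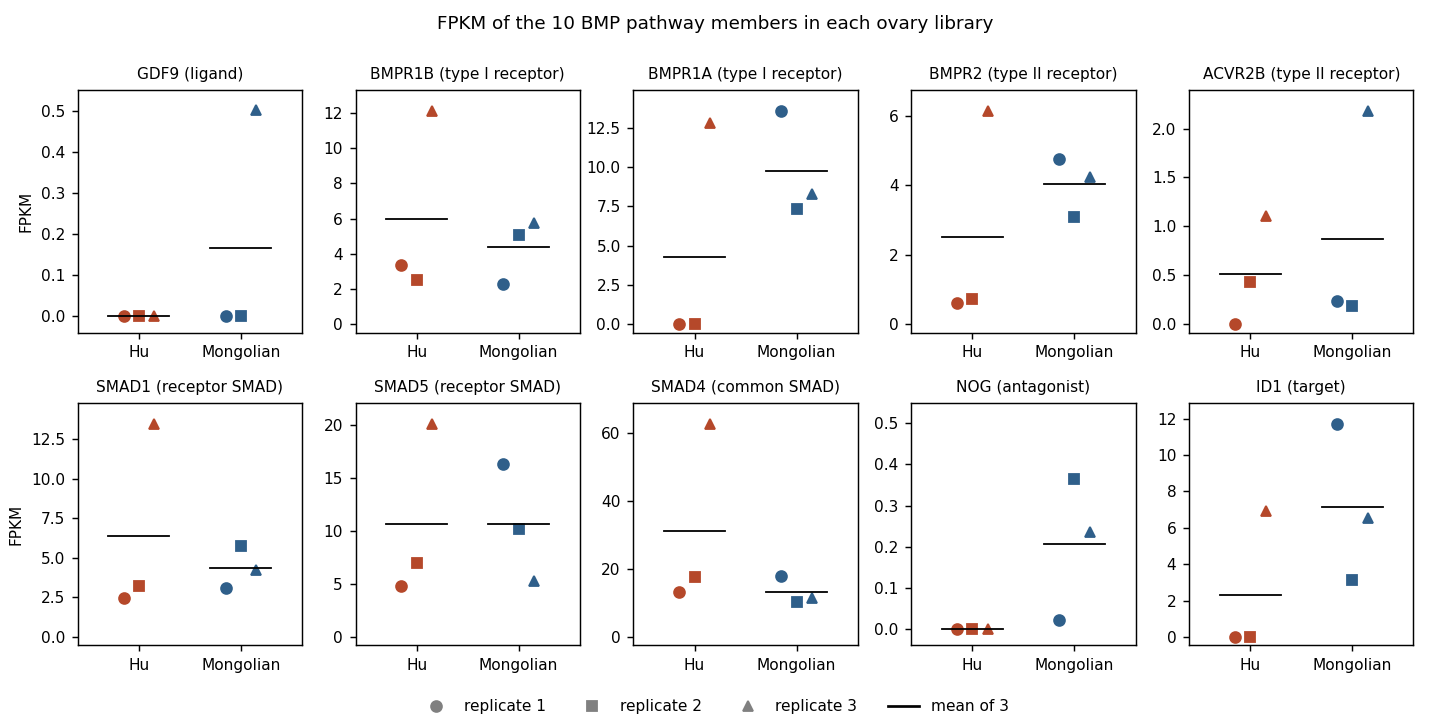
FPKM of each member (vertical axis, a scale of its own in each panel) in the Hu libraries (red) and the Mongolian libraries (blue); the symbol shape gives the replicate number and the black line the mean of 3. Hu 3 stands above Hu 1 and Hu 2 in every member that any Hu library lists above 0, and BMPR1A and ID1 are listed at 0 in Hu 1 and Hu 2.

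Among the ligands, GDF9, the oocyte growth factor in which other fecundity mutations of sheep lie, was listed at 0 in every Hu library. In Mongolian libraries it was listed at 0, 0 and 0.50 FPKM. Of 17 oocyte markers 3 were listed by symbol, GDF9, ZP3 and PADI6. All 3 were at 0 in Hu 1, Hu 2 and Mongolian 2, PADI6 reached 1.67 FPKM in Mongolian 1 and 0.98 in Mongolian 3, and the summed level of the 3 reached at most 0.32 FPKM in Hu ovaries and 1.87 in Mongolian ovaries. BMP15 was not listed by symbol, so it has no value here. In whole ovary tissue, fewer cells of a type and less RNA per cell cannot be told apart. Of the 17 BMP-type ligands examined, 4 were listed and 0 were abundant enough to test. BMP2, BMP4 and BMP6, ligands of the BMP family, reached at most 0.84, 0.42 and 0 FPKM in Hu ovaries and 0.19, 1.20 and 1.71 in Mongolian ovaries.

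BMPR1B, a type I receptor, stood at 3.35, 2.52 and 12.1 FPKM in Hu ovaries, against 2.30, 5.08 and 5.76 FPKM in Mongolian ovaries. The highest value of all 6 libraries was that of Hu 3, the other Hu libraries lay inside the Mongolian range, and the breeds overlapped. The log2 difference, Hu minus Mongolian, on the log2(FPKM + 1) scale was 0.19 with a standard error of 0.72 and a 95% confidence interval from -1.35 to 1.73, so changes of more than 2-fold in either direction lie within it (limma adjusted p = 0.998). An exact two-sided permutation test of the FPKM means gave p = 0.8. The direction rested on Hu 3 and on Mongolian 1: without Hu 3 the log2 difference was -0.39, and without Mongolian 1 it was -0.13. Relative to the median of all genes tested, which was -0.28, BMPR1B lay 0.46 higher, and 0.16 to 0.84 higher than the median of the same fit in the 17 alternative settings. By rank, BMPR1B lay above 79.0%, 66.8% and 83.1% of all genes in the table in Hu ovaries and above 56.4%, 76.4% and 73.9% in Mongolian ovaries. Genes listed at 0 count as lower in these ranks, and they made up 55.1%, 45.0% and 7.86% of the table in the Hu libraries. In the Mongolian libraries they made up 20.8% to 27.2%, so the ranks do not compare the level of BMPR1B between breeds.

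Granulosa cells are a main site of BMPR1B in the sheep follicle. Of 12 granulosa markers 8 were listed by symbol, and their summed level was 197, 37.3 and 94.2 FPKM in Hu ovaries and 69.4, 58.8 and 108 in Mongolian ovaries. Hu 1 had the highest sum, most of it from the inhibin subunits INHA and INHBA at 99.1 and 83.0 FPKM, and also the most markers at 0, 4 of 8 (FSHR, AMHR2, HSD17B1 and GATM), against 2 and 1 in the other Hu libraries and 2, 2 and 0 in Mongolian ovaries. HSD17B1, an estrogen-forming enzyme, stood at 0, 0 and 0.63 FPKM in Hu ovaries, below every Mongolian library at 3.69, 2.46 and 6.52. It was not called (limma unadjusted p = 0.00855, adjusted p = 0.998). Of all genes tested, 6.05% likewise lay below every Mongolian library in all Hu libraries, and 3.73% had an unadjusted limma p under 0.05. FST, follistatin, had means of 4.76 ± 4.79 FPKM among Hu and 11.7 ± 3.73 among Mongolian libraries (SD, n = 3 each). The inhibin subunits went the other way. INHA averaged 53.3 ± 42.3 FPKM among Hu and 27.4 ± 12.4 among Mongolian libraries, and INHBA 41.8 ± 37.4 and 15.8 ± 10.1. Neither subunit was called (limma adjusted p = 0.998 for each). FSHR, the receptor for follicle-stimulating hormone, was also at 0 in Mongolian 1 and Mongolian 2. FOXL2, CYP19A1 and AMH were not listed by symbol. The part of granulosa content in the BMPR1B values was not tested.

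BMPR1A, the other type I receptor of BMPs among the members, was listed at 0, 0 and 12.8 FPKM in Hu ovaries, against 13.6, 7.35 and 8.31 FPKM in Mongolian ovaries. Hu 3 lay within the Mongolian range and the other Hu libraries below all of it. The log2 difference was -2.12 ± 0.92 (SE), the largest in size among the members tested, and it was not called (limma unadjusted p = 0.0363, adjusted p = 0.998, exact permutation p = 0.3 on FPKM means, n = 3 each). Without Hu 3 the log2 difference was -3.38, not called at a limma adjusted p of 0.140. With Hu 1 and Hu 2 left out together it was 0.40 (this setting was added once the values were known). The medians of all genes tested in these fits were -0.66 and 0.51. Of the 2620 genes with a Mongolian mean from 5 to 15 FPKM, 207 were listed at 0 in both Hu 1 and Hu 2, which is 7.90% of them. With limma array weights, which gave Hu 2 the most weight, 6.35% of all genes tested were called, and BMPR1A was among them (log2 difference -3.24, adjusted p = 0.0111).

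The balance of the type I receptors BMPR1B and BMPR1A was also computed, as a share within each library. Such a share does not change when all values of a library are multiplied by 1 factor. Median-of-ratios scaling and rescaling to a common sum do so, and quantile normalization does not. BMPR1B made up 100%, 100% and 48.7% of the summed FPKM of BMPR1B and BMPR1A in Hu ovaries, against 14.5%, 40.9% and 40.9% in Mongolian ovaries. All Hu libraries lay above all Mongolian ones, and how often shares of other genes do so was not computed. In Hu 1 and Hu 2 the BMPR1B share rests on a BMPR1A value listed at 0. In Hu 3, where both were above 0, it exceeded the highest Mongolian share by less than 10 percentage points. The exact permutation p was 0.1, the smallest possible at n = 3 each, and 0.15 after Benjamini-Hochberg adjustment over the 3 shares computed, which were chosen after the values were seen. The mean difference was 50.8 percentage points, and 16.5 with Hu 1 and Hu 2 left out together. Leaving out libraries could not change its sign, since the breeds did not overlap.

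Among the type II receptors, BMPR2, the main type II receptor of BMPs and GDF9, stood at 0.62, 0.73 and 6.15 FPKM in Hu ovaries, against 4.75, 3.10 and 4.25 FPKM in Mongolian ovaries. Hu 1 and Hu 2 lay below all Mongolian libraries and Hu 3 above all of them. The log2 difference of -0.88 ± 0.78 (SE) was not called (limma adjusted p = 0.998), was -1.57 without Hu 3, and was 0.52 with Hu 1 and Hu 2 left out together. ACVR2B, an activin receptor that also takes BMPs, stood at 0, 0.43 and 1.11 FPKM in Hu ovaries, against 0.24, 0.19 and 2.18 FPKM in Mongolian ovaries. The breeds overlapped, and a fit without the filter gave ACVR2B a log2 difference of -0.21 ± 0.58 (SE, limma adjusted p = 0.981). BMPR2 made up 100%, 63.0% and 84.7% of the summed FPKM of the pair in Hu ovaries and 95.3%, 94.3% and 66.1% in Mongolian ovaries (exact permutation p = 0.9, n = 3 each, and 0.9 after adjustment over the 3 shares).

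**Figure D2:**
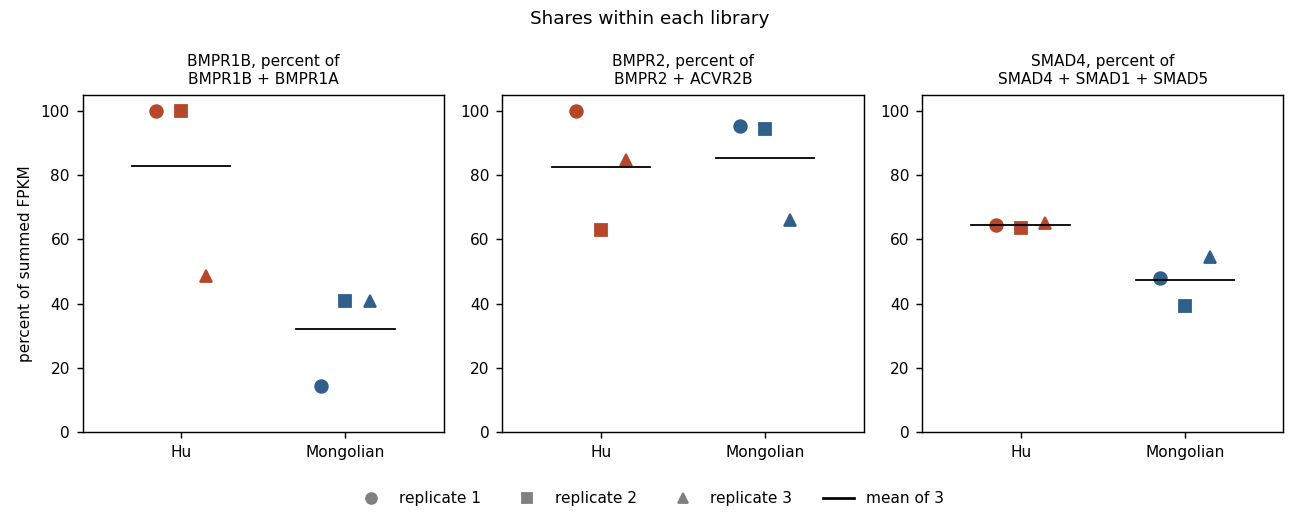
Share of summed FPKM within each library (vertical axis, percent) for BMPR1B in BMPR1B plus BMPR1A, BMPR2 in BMPR2 plus ACVR2B, and SMAD4 in SMAD4 plus SMAD1 plus SMAD5. Hu is red, Mongolian blue, symbol shapes give the replicate and a line the mean of 3. The Hu libraries lie above the Mongolian ones in the BMPR1B and SMAD4 shares and overlap them in the BMPR2 share. How often shares of other genes separate the breeds was not computed.

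Of the 6 SMADs tested, SMAD4 had the largest log2 difference, though not a called one. SMAD4, the partner that every receptor SMAD needs, stood at 13.3, 17.8 and 62.8 FPKM in Hu ovaries, against 18.1, 10.3 and 11.4 FPKM in Mongolian ovaries. Hu 3 was more than 3 times any other library, and Mongolian 1 lay above Hu 1 and Hu 2, so the breeds overlapped as deposited. The log2 difference was 0.90 ± 0.61 (SE), with a 95% confidence interval from -0.41 to 2.20, and was not called (limma adjusted p = 0.998, exact permutation p = 0.3 on FPKM means, n = 3 each). It stayed positive in all 17 alternative settings, from 0.24 without Hu 3 to 2.20 with Hu 1 and Hu 2 left out together. Among these, the changed filters, the replicate block and the restriction to genes above 0 in all libraries left it at 0.90 and could not have moved it.

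After scaling between libraries the SMAD4 values no longer overlapped. All Hu libraries lay above all Mongolian ones after median-of-ratios scaling, quantile normalization and rescaling to a common sum, where 3.56%, 5.48% and 4.33% of all genes tested did so. SMAD4 was called in none of these settings.

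SMAD1, a receptor SMAD, stood at 2.47, 3.21 and 13.5 FPKM in Hu ovaries, against 3.11, 5.73 and 4.21 FPKM in Mongolian ovaries. Its Hu 1 value was the lowest and its Hu 3 value the highest of all, and the log2 difference of 0.18 ± 0.72 (SE) turned to -0.46 without Hu 3. SMAD5, a close relative of SMAD1 with the same role, stood at 4.84, 6.99 and 20.1 FPKM in Hu ovaries, against 16.4, 10.2 and 5.29 FPKM in Mongolian ovaries. The breeds overlapped over nearly the whole range, with means of 10.6 ± 8.26 FPKM in Hu ovaries and 10.6 ± 5.55 in Mongolian ovaries (SD, n = 3 each). Its log2 difference of -0.10 ± 0.66 (SE) changed sign under all 3 scalings.

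SMAD4 made up 64.6%, 63.6% and 65.2% of the summed FPKM of SMAD4, SMAD1 and SMAD5 in Hu ovaries, against 48.1%, 39.2% and 54.6% in Mongolian ovaries. The Hu libraries lay within 2 percentage points of each other although Hu 3 listed more than 3 times as much SMAD4, and all of them lay above all Mongolian libraries. The mean share was 64.4% ± 0.79 in Hu ovaries and 47.3% ± 7.72 in Mongolian ovaries, a difference of 17.1 percentage points (SD, exact permutation p = 0.1, n = 3 each, and 0.15 after adjustment over the 3 shares). The shares were chosen after the values were seen and 0.1 is the smallest p possible, so these p-values decide nothing. How often shares of other genes separate the breeds was not computed. Unlike the BMPR1B share, the SMAD4 share holds no value at 0. Its difference was 17.9 percentage points with Hu 1 and Hu 2 left out together. Leaving out a library at a time gave 13.1 to 20.8 percentage points. Since all Hu shares lay above all Mongolian ones, leaving out libraries could change the size of this difference but not its sign.

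NOG, noggin, an antagonist that binds BMP ligands outside the cell, was listed at 0 in every Hu library and at 0.021, 0.36 and 0.23 FPKM in Mongolian ovaries. All Hu libraries lay below all Mongolian ones, as did 4.66% of the 14480 genes, and 0.359% of all genes were likewise at 0 in all Hu libraries and above 0 in all Mongolian ones. The values lie under the filter, and a fit without it gave a log2 difference of -0.26 ± 0.22 (SE, limma adjusted p = 0.975).

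ID1, a target that SMAD1 and SMAD5 switch on and that holds back differentiation, was listed at 0, 0 and 6.94 FPKM in Hu ovaries, against 11.7, 3.15 and 6.55 FPKM in Mongolian ovaries. It shared with BMPR1A the 0 in Hu 1 and Hu 2 and a Hu 3 value inside the Mongolian range. The log2 difference of -1.88 ± 0.89 (SE) was not called (limma unadjusted p = 0.0508, adjusted p = 0.998, exact permutation p = 0.3 on FPKM means, n = 3 each). With array weights ID1 was called (-2.78, limma adjusted p = 0.0203), as were 6.35% of all genes tested. That setting put a weight of 0.25 on Hu 3, the only Hu library listing ID1 above 0. The log2 difference was -2.88 without Hu 3 and 0.11 with Hu 1 and Hu 2 left out together. Of all genes tested, 10.3% were at 0 in Hu 1 and Hu 2 and above 0 in the other 4 libraries, as BMPR1A and ID1 were.

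Genes of the rest of the pathway were examined in a list of 74 that includes the members, of which 44 were listed by symbol and 34 were tested. None of the 34 was called by limma and 1, BMPR1A, had an unadjusted p under 0.05, against 3.73% of all genes tested. With array weights 3 of the 34 were called, BMPR1A, ID1 and SMURF2, against 6.35% of all genes tested, so both counts are near the background. As deposited, 11 had a positive and 23 a negative log2 difference, and 32.4% were thus higher in Hu ovaries, against 32.3% of all genes tested. The median log2 difference was -0.31 in the list and -0.28 over all genes. In the Hu libraries 50%, 34.1% and 9.09% of the 44 genes were listed at 0, and in the Mongolian libraries 13.6%, 15.9% and 15.9%.

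**Figure D3:**
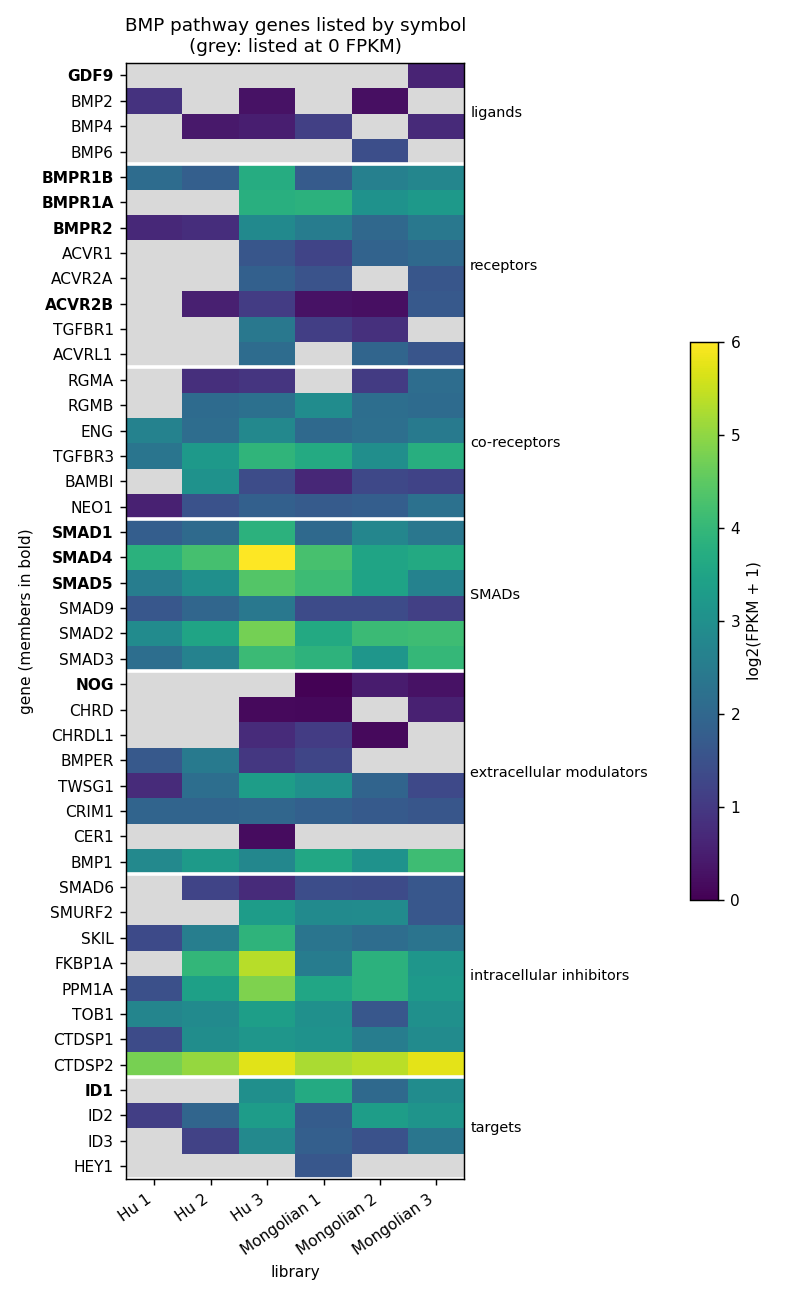
Level of the 44 pathway genes listed by symbol (rows, grouped by role, members in bold) in each library (columns), as log2(FPKM + 1); grey cells are listed at 0. Grey cells number 22 in Hu 1, 15 in Hu 2 and 4 in Hu 3, against 6, 7 and 7 in the Mongolian libraries.

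All 3 Hu libraries lay above all Mongolian ones in 2 of the 34 genes, SMAD9 and CRIM1, against 1.88% of all genes tested, and below them in 1, SMAD6, against 6.05%. SMAD9, the third receptor SMAD of BMPs, stood at 2.11, 2.94 and 4.28 FPKM in Hu ovaries, against 1.57, 1.57 and 1.20 FPKM in Mongolian ovaries. Its log2 difference of 0.72 ± 0.71 (SE) was not called (limma adjusted p = 0.998), and its values also did not overlap under any of the 3 scalings. CRIM1, a membrane protein that binds BMPs, stood at 2.81, 2.84 and 2.96 FPKM in Hu ovaries, against 2.58, 2.27 and 2.04 FPKM in Mongolian ovaries. SMAD6, an inhibitory SMAD induced by BMPs, stood at 0, 1.34 and 0.66 FPKM in Hu ovaries, against 1.66, 1.57 and 2.10 FPKM in Mongolian ovaries. The values of CRIM1 and SMAD6 overlapped between breeds after median-of-ratios scaling and after quantile normalization.

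Among the other receptors, of which 7 with the members were tested, 2 had a positive and 5 a negative difference. Of all genes tested 32.3% had a positive one. ACVR1, a further type I receptor of BMPs, averaged 0.68 ± 1.18 FPKM in Hu ovaries and 2.42 ± 0.96 in Mongolian ovaries (SD, n = 3 each), with 0 in Hu 1 and Hu 2. Of 6 co-receptors tested 2 were positive and 4 negative. RGMB, a BMP co-receptor, averaged 2.31 ± 2.01 FPKM in Hu ovaries and 4.44 ± 1.85 in Mongolian ovaries, NEO1, a receptor of RGM proteins, 1.64 ± 1.08 in Hu ovaries and 2.83 ± 0.77 in Mongolian ovaries, and RGMA 0.54 ± 0.47 in Hu ovaries and 1.50 ± 1.77 in Mongolian ovaries. SMAD3, a receptor SMAD of activin and TGF-beta, averaged 8.28 ± 6.74 FPKM in Hu ovaries and 12.2 ± 3.76 in Mongolian ovaries.

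Of the extracellular modulators 4 were tested, of which 2 were positive. BMPER, a secreted BMP-binding protein, stood at 2.18, 4.54 and 0.96 FPKM in Hu ovaries, against 1.37, 0 and 0 FPKM in Mongolian ovaries. Its log2 difference of 1.29 ± 0.68 (SE) was the highest of the 34 genes and was not called (limma adjusted p = 0.998). BMP1, a protease that cleaves the antagonist chordin and procollagens, averaged 6.89 ± 1.58 FPKM in Hu ovaries and 11.7 ± 4.63 in Mongolian ovaries, and TWSG1, a modulator of BMP binding, 4.41 ± 4.28 in Hu ovaries and 3.77 ± 2.87 in Mongolian ovaries.

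Intracellular inhibitors were tested in 8 genes, 2 of them positive and 6 negative, where 32.3% of all genes tested were positive. SMURF2, a ubiquitin ligase that degrades SMADs and receptors, was listed at 0, 0 and 8.999 FPKM in Hu ovaries, against 6.26, 6.40 and 2.11 FPKM in Mongolian ovaries, and TOB1, an antiproliferative protein that binds SMADs, averaged 7.06 ± 1.92 in Hu ovaries and 5.39 ± 2.86 in Mongolian ovaries. Beside ID1, the target genes tested were ID2 and ID3, relatives of ID1. All 3 had a negative difference, as had most genes tested, and the ID3 difference was 0.10 without Hu 1. ID2 averaged 4.33 ± 4.07 FPKM in Hu ovaries and 6.39 ± 3.58 in Mongolian ovaries, and ID3 2.45 ± 3.20 in Hu ovaries and 2.85 ± 1.17 in Mongolian ovaries. Hu 3, at 6.07 FPKM, had more ID3 than any Mongolian library.

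**Figure D4:**
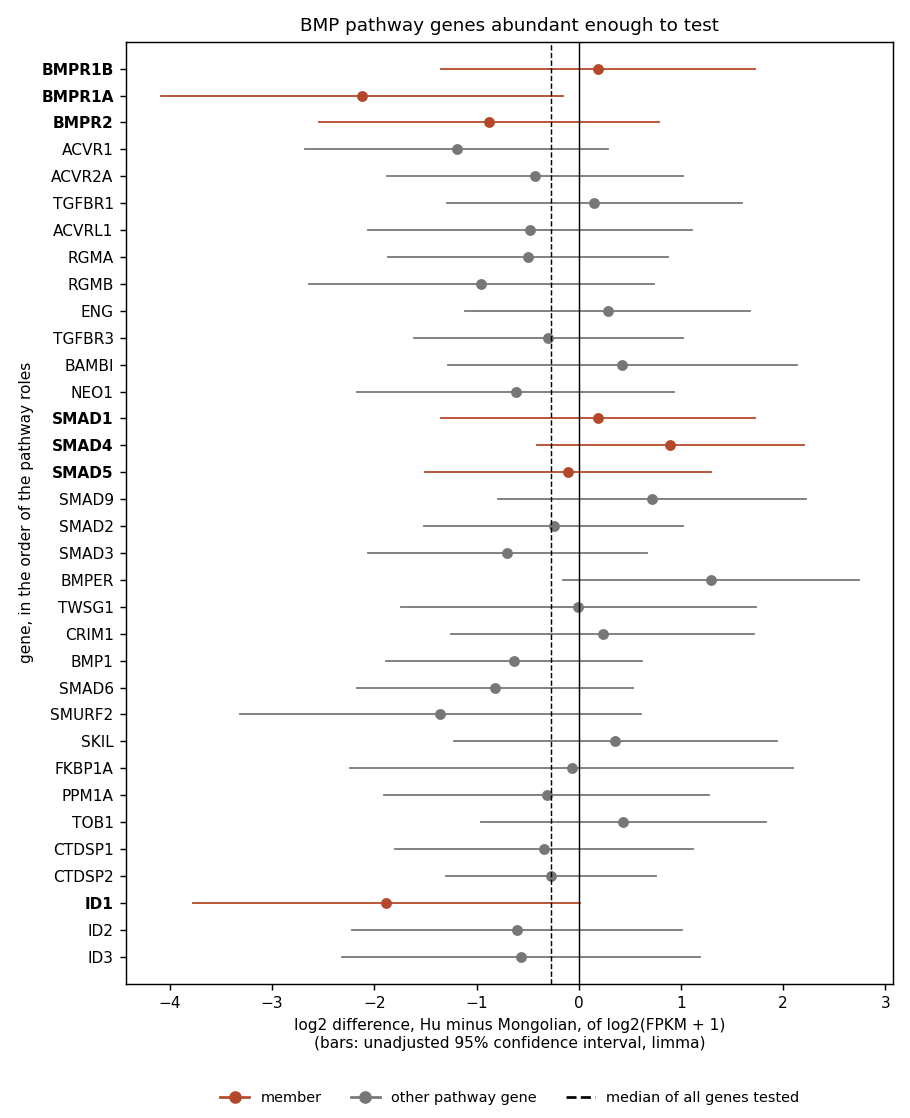
Log2 difference, Hu minus Mongolian (horizontal axis, on the log2(FPKM + 1) scale), of the 34 pathway genes tested, with unadjusted 95% confidence intervals from limma; members are red and the dashed line is the median of all genes, -0.28. The interval of BMPR1A lies below 0, those of the other 33 genes hold 0, and no gene passed the adjusted threshold.

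The genes most like BMPR1B across the 6 libraries were CMAS, an enzyme that activates sialic acid, TIMP3, an inhibitor of matrix proteases, KCTD18, the transcription factor ETS2 and ME1, cytosolic malic enzyme. Their Pearson correlations with BMPR1B over log2(FPKM + 1) were 0.995, 0.994, 0.987, 0.986 and 0.984, a description over 6 libraries in which both genes of a pair share the depth of each library. CMAS stood at 2.16, 1.75 and 11.2 FPKM in Hu ovaries and at 1.43, 4.51 and 4.40 in Mongolian ovaries, the order of BMPR1B but for Mongolian 2 and 3. A correlation of at least 0.95 was shared with 55 of 7571 genes by BMPR1B, 25 by SMAD4, 218 by BMPR1A and 254 by BMPR2.

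**Figure D5:**
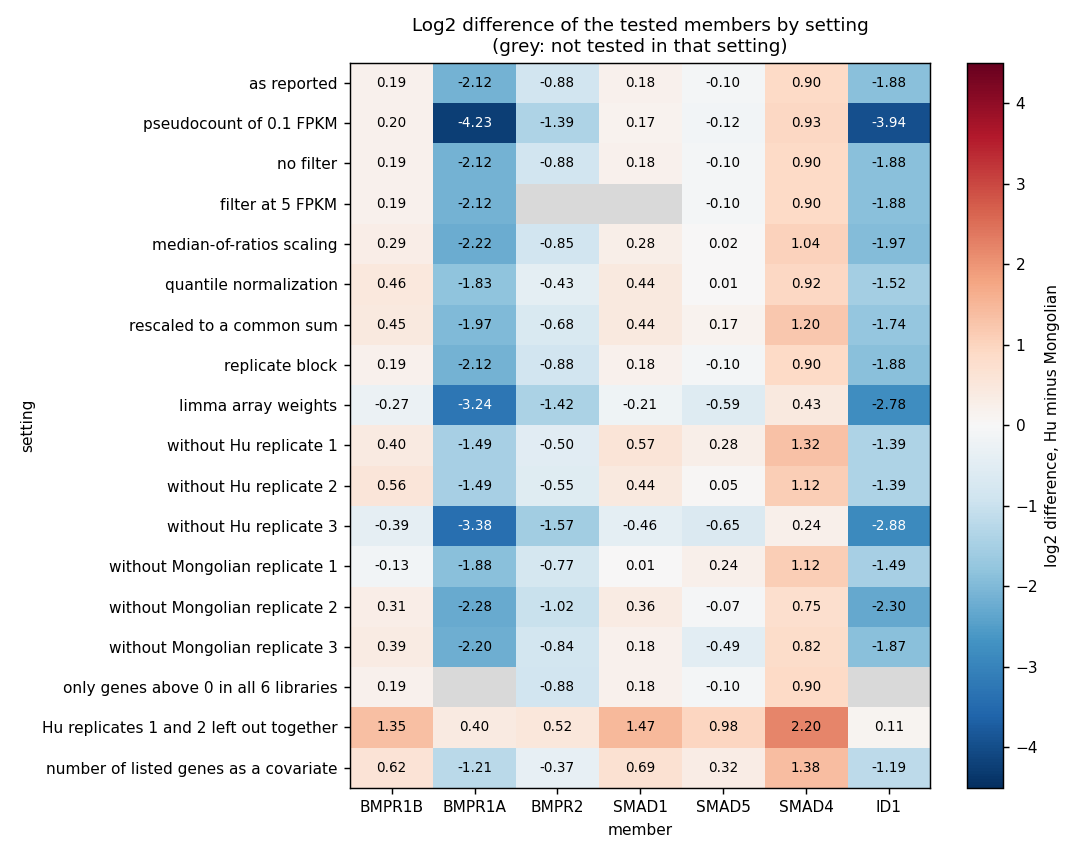
Log2 difference, Hu minus Mongolian, of the 7 members tested (columns) under each setting (rows), printed in the cells and coloured from blue (lower in Hu) to red (higher in Hu); grey cells were not tested. SMAD4 is positive in every row. The rows for the changed filters, the replicate block and genes above 0 in all libraries repeat the reported values by design. All 7 members are positive with Hu 1 and Hu 2 left out together, where the median of all genes tested was itself 0.51.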

How the data were processed

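Polyadenylated RNA of 6 ovary libraries was measured, 3 from Hu and 3 from Mongolian sheep, with groups taken from the sample titles. The labels' protocols give a SMARTer library kit, which amplifies by PCR and can miss scarce transcripts. The authors deposited FPKM values per gene; the sources used here name no aligner, counter or genome build. The lncRNA table was not used, and no column was left without a sample. Steps of whole reads were looked for and not found: between any 2 libraries, no more than 0.566% of the genes with values under 2 FPKM had the same ratio to within 0.2%. Over all 14480 genes, no gene had the same value above 0, to all digits deposited, in any 2 libraries. Depth is thus unknown, and no count model was used.

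The 9971 genes that reached 0.5 FPKM in 3 or more libraries were tested on log2(FPKM + 1), which understates changes of low genes, with limma 3.58.1 in R 4.3.3 (eBayes with a trend, two-sided, breed as the only factor, Benjamini-Hochberg adjustment over all genes tested). The code of the fit was run on simulated data, in which the residuals of each gene were shuffled among the libraries. Shuffling removes the differences between whole libraries seen here, so that run does not test the fit under them. Exact permutation tests used the 20 splits of 6 libraries in scipy 1.17.1. Alternatives were another pseudocount (0.1), no filter, a filter at 5 FPKM, 3 scalings, the replicate number as a block, array weights, leaving out each library, and genes above 0 in all libraries; a further pair was added after the data were seen. Named genes are all members and, per pathway role, up to 3 with the smallest p (all where 4 or fewer were tested). The 5 genes most like BMPR1B are also named. The scarce ligands, the genes whose breeds did not overlap and the granulosa markers compared between breeds were named after their values were seen. The members and lists were chosen with earlier results of these data known. No sequence or genome position is shown, since none was used here.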

Additional observations from a re-analysis of the deposited data

How the results depend on the processing

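Without 1 library at a time, 0 to 4 genes were called over the whole table (2 without Hu 2, 4 without Hu 3), and 0 of the pathway list. Limma array weights, which put a weight of 3.64 on Hu 2, 0.41 on Hu 1 and 0.25 on Hu 3, gave 633 genes, 6.35% of those tested, 3 of them in the pathway list: BMPR1A (-3.24, adjusted p = 0.0111), ID1 (-2.78, adjusted p = 0.0203) and SMURF2 (-2.46, adjusted p = 0.0268). All other settings called 0 genes. The log2 difference of BMPR1B was 0.19 with the replicate block, which in this balanced design cannot move it, and -0.27 with array weights. Leaving out 1 library at a time gave -0.39 to 0.56. The block called 0 genes, with 397 against 372 at an unadjusted limma p under 0.05. Deviations of same-numbered libraries from their breed means had correlations of -0.01, -0.03 and -0.18. These show no sign of pairing by number, though so few libraries cannot exclude it.

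Of 115 recomputed differences of the 7 members, 97 kept direction and call and 16 changed sign. The changed filters, the replicate block and the restriction to genes above 0 in all libraries cannot move a difference, only its p-value. Those settings thus keep direction by design and add no support to the count. SMAD1 turned with array weights (-0.21) and without Hu 3, and ranged from -0.46 to 0.57 with 1 library left out. SMAD5 turned with all scalings (0.023 by median of ratios, 0.0092 by quantiles and 0.17 with a common sum), with the count of listed genes as a covariate (0.32), and without Hu 1, Hu 2 or Mongolian 1, and ranged from -0.65 to 0.28 with 1 library left out. With Hu 1 and Hu 2 left out together, BMPR1A, BMPR2, SMAD5 and ID1 turned (0.40, 0.52, 0.98 and 0.11). In that fit the lone Hu library is assumed to vary like the others. Its median over all genes tested was 0.51, relative to which they lay, in that order, at -0.11, 0.0072, 0.47 and -0.40. Without Hu 3 that median was -0.66. The BMPR2 share turned without Hu 2, Mongolian 1 or Mongolian 2 (range -12.2 to 7.10 percentage points with 1 library left out). The median of all genes was -0.28 in the deposited values, -0.23 with ratios scaled to their median, 0.019 with quantiles made equal and -0.086 with a common sum. Relative to these medians BMPR1B lay at 0.46, 0.53, 0.44 and 0.53, SMAD4 at 1.17, 1.27, 0.90 and 1.28, and BMPR1A at -1.84, -1.98, -1.85 and -1.89. The cause of these changes was not tested. BMPR2 and SMAD1 had no value with the filter at 5 FPKM, nor BMPR1A and ID1 among genes above 0 in all libraries.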
